A study of Mus musculus with 8 samples.

Results

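Glycolysis splits glucose or fructose into pyruvate, and lactate dehydrogenase interconverts pyruvate and lactate. The pyruvate dehydrogenase complex turns pyruvate into acetyl-CoA inside the mitochondria. The 39 genes described here cover that route together with the sugar and lactate transporters and the testis glycerol kinases, and were chosen by name. Each gene was read by 1 probe set, the brightest on average over the 8 arrays among those annotated to it alone. Of the 39 genes, 36 were measured, among 18193 genes in all, and Gpi1, Eno1 and Gykl1 were not analysed here.

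The arrays profiled total RNA of round spermatids, the haploid cells that follow meiosis. The mutant group held 4 arrays from BrdtΔBD1 mice. Brdt is a testis protein that binds acetylated histones through a pair of bromodomains, and this allele removes the first. The control group held 4 arrays, whose genotype the labels name only as control. All animals were 129 Sv/Ev adults of 2 to 4 months, each array pooled cells of 7 animals, and the cells of both groups were separated on an albumin gradient. The labels do not state whether the mutant animals were homozygous. Values are log2 intensities per probe set, so a difference of 1 is 2-fold, and levels of different probe sets are not compared with each other, only their changes.

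Round spermatids cannot easily live on glucose alone and are fed lactate and pyruvate by Sertoli cells through monocarboxylate transporters. During and after meiosis they also switch on germ cell forms of glycolytic enzymes, several of them intronless copies such as Pgk2 and Pdha2, whose parent genes Pgk1 and Pdha1 lie on the X chromosome that is silenced in meiosis. Many of these enzymes, Gapdhs among them, end up bound to the fibrous sheath of the sperm tail, where glycolysis powers swimming.

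Brdt itself read 11.09, 10.68, 10.29 and 10.62 on mutant arrays 1 to 4, against 12.13, 12.24, 11.72 and 12.25 on control arrays 1 to 4. It was lower on every mutant array than on any control array (adjusted p = 0.00735, limma), but whether its probes fall within the deletion is not known here, so it does not check the labels. Round spermatid markers averaged 13.3 to 13.6 on the mutant arrays and 13.3 to 13.5 on the control arrays, and 0 of 14 passed the test. These markers include Gapdhs, which is also among the genes described here. The means of Sertoli, spermatogonial and peritubular markers were higher on every mutant array than on any control array. The peritubular mean rests mainly on Dcn and Lum, and the median difference of its markers was 0.043. Those of spermatocyte, Leydig, blood and endothelial markers overlapped between the groups. Of 27 Sertoli markers 25 were measured, 6 rose and 0 fell, and their mean was 7.34, 6.01, 7.62 and 7.17 on mutant arrays 1 to 4, against 5.17, 5.29, 6.0 and 5.80 on control arrays 1 to 4. Of the defining Sertoli markers, Amh (1.95 against 1.97) and Fshr (2.51 against 2.41) read near the floor in both groups and Sox9 read 3.80 in both, while Cldn11 read 5.89 against 4.17 and Vim 9.24 against 6.29. Spermatogonial markers, of which 12 of 13 were measured and 1, Etv5, rose, averaged 5.11 to 5.97 on mutant and 4.41 to 4.90 on control arrays. Spermatocyte markers (13 of 15 measured, none past the threshold) averaged 8.29 to 9.53 and 8.08 to 8.53. At an unadjusted p under 0.05 (limma) 6 of them were higher and 1 lower, beside 11% and 9.16% of all genes. The spermatocyte and Leydig means overlapped between the groups but were higher in the mutant within every pair of arrays with the same replicate number. On the Gapdh quality-control probes, the 3' signal exceeded the 5' signal, a sign of RNA quality, by 0.33 to 0.94 in log2 on mutant arrays and 1.68, 0.48, 2.05 and 0.46 on control arrays 1 to 4, so control arrays 1 and 3 stood apart. Arrays with the same replicate number deviated together in the 2 groups. Values with that number as a block are given for members whose call they change, and for other pathway genes as counts. Marker genes are given without the block.

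Of the 36 measured genes 1 rose, the lactate transporter gene Slc16a1, and 1 fell, the phosphofructokinase gene Pfkp, at an adjusted p under 0.05 over all genes. Over all genes 1.86% rose and 1.85% fell, 3.71% in either direction, so this count is near the background. At an unadjusted p under 0.05, 8 members were higher and 2 lower, beside 11% and 9.16% of all genes. Of the members' 68 probe sets, tested over all probe sets, 0 rose and 1 fell, beside 0.717% risen and 0.702% fallen, 1.42% in all. In the fit with the replicate block 9 of them rose, and the share of all probe sets was not counted for that fit. These 9 belong to Slc16a1, Hk2, Pfkl, Pgam1 and Ldhb, with all 4 probe sets of Ldhb among them, so they are not separate genes. With the replicate block 5 members rose (Slc16a1, Hk2, Pfkl, Pgam1 and Ldhb) and 1 fell (Pfkp), where 6.6% and 4.94% of all genes did. The groups were fully separate for 6 members, or 16.7%, against 12.6% of all genes. Of these, 3 were higher in the mutant (Slc16a1, Hk2 and Pgam1, beside 6.15% of all genes) and 3 lower (Pfkp, Pgam2 and Gk2, beside 6.49%). The median log2 difference, mutant minus control, was 0.0048 over the members and -0.0218 over all genes, with 18 members above 0 and 18 below. In these bulk preparations, fewer cells of a type and less RNA per cell cannot be told apart.

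**Figure D1:**
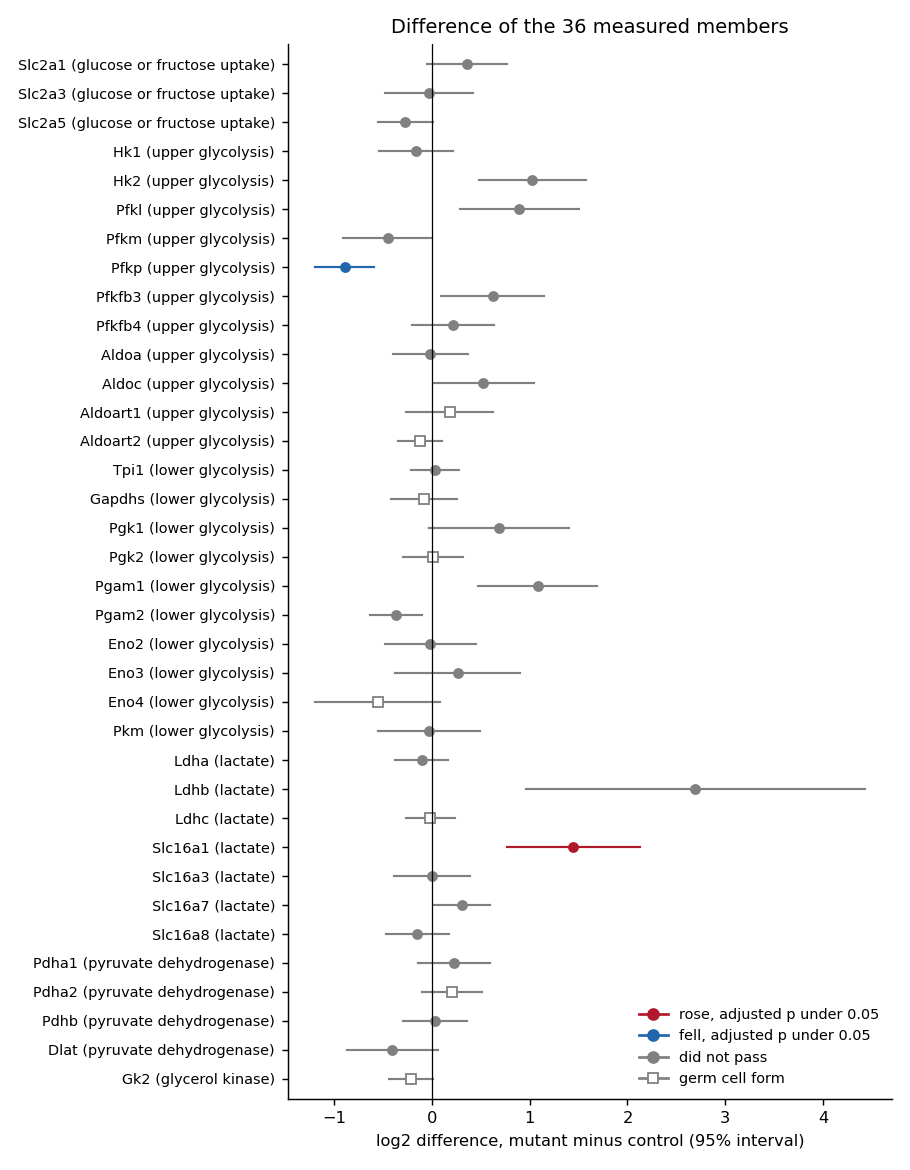
Log2 difference (mutant minus control) of each of the 36 measured members with its 95% interval from limma, ordered by step of the pathway. Slc16a1 lies above 0 and Pfkp below 0 past the threshold, Ldhb has the widest interval, and the open squares, which are the 8 germ cell forms, lie between -0.55 and 0.21.

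By intensity class, among the 21 members with a mean of at least 10 the median difference was -0.0291 and 1 fell, beside -0.0391 over the 2809 genes of that class, of which 1.82% were called. Among the 8 members with a mean between 4 and 10 the median was 0.86 and 1 rose, beside 0.0412 over the 6189 genes of that class, of which 8.85% were called. These 8 were Pgk1, Pgam1, Hk2, Ldhb, Slc16a1, Pfkfb4, Eno3 and Dlat, and all but Dlat had a difference above 0. The 7 members with a mean under 4 (Slc2a1, Pfkl, Aldoc, Eno2, Slc16a3, Slc16a8 and Pdha1) read close to the floor of the background correction, where changes in RNA are compressed. The classes were drawn after the values were seen and carry no test.

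Sugar uptake genes did not pass. Slc2a3, a high-affinity glucose transporter, averaged 13.50 ± 0.31 in mutant and 13.53 ± 0.30 in control arrays (SD, n = 4 each), and the interval of its difference ran from -0.48 to 0.42. Slc2a5, the fructose transporter, read 12.36, 12.54, 12.36 and 12.62 on mutant arrays, against 12.87, 12.64, 12.57 and 12.89 on control arrays, lower within all 4 same-numbered pairs, while mutant array 4 lay above control array 3 (difference -0.27, SE 0.12, adjusted p = 0.266, limma). Slc2a1, the general somatic glucose transporter, averaged 4.04 ± 0.30 in mutant and 3.68 ± 0.24 in control arrays.

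The probe sets of Slc2a3 differed among arrays in unlike ways. Its brightest probe set stayed between 13.27 and 13.95 on mutant arrays. The dimmest of its 4 probe sets read 4.94, 10.57, 5.03 and 9.54 on mutant arrays 1 to 4, against 3.68, 10.33, 2.99 and 10.33 on control arrays 1 to 4. Arrays 1 and 3 of both genotypes were low and arrays 2 and 4 high. The next dimmest split the arrays alike, from 7.72 to 11.03 on mutant and from 4.18 to 10.88 on control arrays. Neither of these probe sets passed between genotypes (adjusted p = 0.919 for the dimmest and 0.784 for the next, over all probe sets, limma). Control arrays 1 and 3, where they were lowest, are also the arrays with the largest Gapdh 3' minus 5' difference. On mutant arrays 1 to 4 that difference was 0.60, 0.33, 0.94 and 0.59. On the Actb quality-control probes the 3' minus 5' difference was 1.54, 1.39, 1.65 and 1.11 on mutant arrays 1 to 4. On control arrays 1 to 4 it was 2.43, 1.16, 2.39 and 0.97, so arrays 1 and 3 were highest in both groups. The part of RNA quality in these values was not tested.

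**Figure D2:**
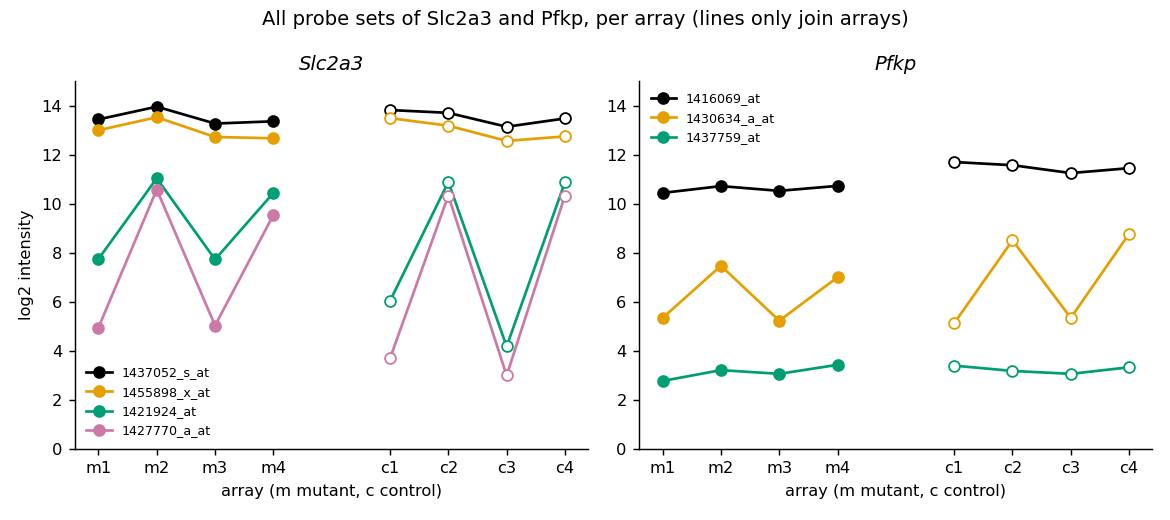
Log2 intensity on each mutant (m) and control (c) array for all probe sets of Slc2a3 and Pfkp, with replicate numbers 1 to 4. The 2 dimmer probe sets of Slc2a3 and the middle one of Pfkp are low on arrays 1 and 3 and high on arrays 2 and 4 of both genotypes, while the brightest probe set of Slc2a3 is level and that of Pfkp is lower on all mutant arrays.

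The clearest fall was in phosphofructokinase, the committed step of glycolysis, which is built from liver (Pfkl), muscle (Pfkm) and platelet (Pfkp) type subunits. Pfkp read 10.44, 10.71, 10.52 and 10.72 on mutant arrays 1 to 4, against 11.70, 11.57, 11.25 and 11.45 on control arrays 1 to 4. Every mutant array was below every control array, and the level was 1.85-fold lower (difference -0.89, SE 0.13, adjusted p = 0.0114, limma). Pfkp passed in all 8 fits that leave out 1 array (adjusted p from 0.0109 to 0.0475). It did not pass without both control arrays 1 and 3 (-0.91, adjusted p = 0.0771) or with the mean of its 3 probe sets (-0.56, adjusted p = 0.423). The dimmest of the 3 averaged 3.11 in mutant and 3.24 in control arrays, near the floor. The middle one read 5.34, 7.47, 5.23 and 7.0 on mutant and 5.12, 8.50, 5.34 and 8.77 on control arrays. As for Slc2a3, this probe set was low on arrays 1 and 3 of both genotypes.

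Pfkm read 10.65, 11.61, 11.31 and 11.45 on mutant and 11.80, 11.76, 11.55 and 11.71 on control arrays. It was lower within all 4 pairs, the groups overlapped, and it did not pass (difference -0.45, SE 0.20, adjusted p = 0.252). Pfkl went the other way from a level near the floor. It read 3.69, 3.38, 4.14 and 4.64 on mutant arrays, against 2.69, 3.17, 3.01 and 3.38 on control arrays, higher in all 4 pairs (difference 0.90, SE 0.27, adjusted p = 0.108, and 0.033 with the replicate block). A further probe set of Pfkl averaged 4.32 in mutant and 2.64 in control arrays without overlap (adjusted p = 0.124 over probe sets, and 0.0337 with the block).

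Hexokinase, which traps glucose as its phosphate, is made in germ cells mainly from Hk1, whose difference was -0.16 (95% interval -0.53 to 0.22). Hk2, the insulin-responsive somatic form, read 5.10, 4.31, 5.41 and 4.91 on mutant arrays, against 3.62, 3.81, 4.31 and 3.89 on control arrays. Mutant array 2 lay only just above control array 3, and the other mutant arrays were clear of all controls. The difference was 1.03 (SE 0.24), with an adjusted p of 0.0547 without and 0.0177 with the replicate block. The control mean of 3.91 lay near the floor, so no fold is given. Of the bifunctional enzymes that set fructose 2,6-bisphosphate, Pfkfb3 differed by 0.62 (adjusted p = 0.176) and Pfkfb4 by 0.22 (adjusted p = 0.582). Without mutant array 2, Pfkfb3 passed as well (0.83, adjusted p = 0.0309).

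Aldolase cleaves fructose 1,6-bisphosphate. The retrogenes Aldoart1 and Aldoart2, made in spermatids, differed by 0.18 and -0.12, and Aldoa by -0.0128. Aldoart2 was among the most even members, at 13.00 to 13.09 on mutant and 13.07 to 13.28 on control arrays. Aldoc, the brain form, read 3.45, 3.54, 2.70 and 2.63 on mutant arrays against 2.34 to 2.66 on control arrays, all near the floor (adjusted p = 0.234).

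In lower glycolysis 0 of 10 measured members passed, and 1, Pgam1, rose with the replicate block. Tpi1, triose phosphate isomerase, averaged 12.97 ± 0.10 in mutant and 12.93 ± 0.11 in control arrays. Gapdhs, the sperm glyceraldehyde 3-phosphate dehydrogenase, averaged 14.04 ± 0.12 and 14.12 ± 0.27 in mutant and control arrays, and its 95% interval of -0.41 to 0.26 bounds the change at well under 2-fold either way. Pkm, pyruvate kinase, differed by -0.0265 with an interval of -0.55 to 0.49.

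Phosphoglycerate mutase showed opposite signs in its forms. Pgam1, the general form, read 7.70, 6.48, 7.32 and 7.14 on mutant arrays, against 6.36, 5.56, 6.19 and 6.21 on control arrays, with no overlap (difference 1.08, SE 0.27, 2.12-fold). Its adjusted p was 0.0626 without the block and 0.00669 with it. Pgam2, the muscle form that is also abundant in testis, read 13.70, 13.41, 13.51 and 13.58 on mutant arrays, against 14.04, 13.73, 13.87 and 14.02 on control arrays, also with no overlap (difference -0.37, SE 0.12, adjusted p = 0.128, and 0.0593 with the block).

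Phosphoglycerate kinase, which yields ATP, has an X-linked form, Pgk1, and an autosomal germ cell form, Pgk2, on chromosome 17. Pgk1 read 7.33, 5.79, 6.58 and 6.46 on mutant arrays, against 5.93, 5.34, 5.86 and 6.28 on control arrays, higher within all 4 pairs while the groups overlap (difference 0.69, SE 0.32, adjusted p = 0.269). Pgk2 averaged 14.17 ± 0.18 in mutant and 14.16 ± 0.16 in control arrays, a difference of 0.0113. Of the enolases, Eno4, needed for sperm enolase activity in the mouse, was lower within all 4 pairs at 10.40, 10.07, 11.13 and 11.01 on mutant against 11.41, 10.61, 11.51 and 11.29 on control arrays (difference -0.55, adjusted p = 0.317, and 0.0593 with the block). Its other probe sets differed by -0.55 and -0.39. Eno3 differed by 0.26 with an interval of -0.38 to 0.91, and Eno2 read near the floor.

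**Figure D3:**
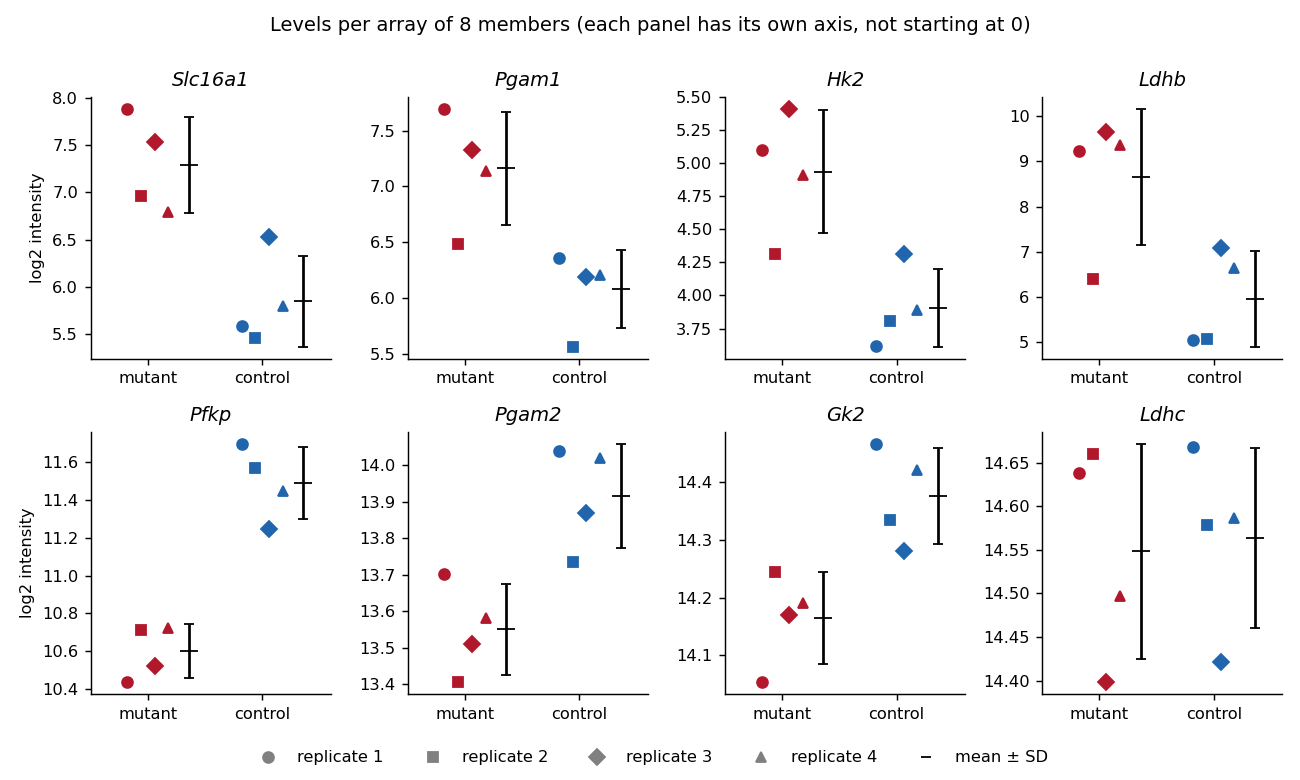
Log2 intensity on each mutant and control array for Slc16a1, Pgam1, Hk2, Ldhb, Pfkp, Pgam2, Gk2 and Ldhc, with the mean and SD of each group (n = 4) beside the points and replicate numbers as symbols. The groups do not overlap for Slc16a1, Pgam1, Hk2, Pfkp, Pgam2 and Gk2, mutant array 2 is low for Ldhb, and Ldhc lies between 14.40 and 14.67 on all arrays.

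The rise among the members was in lactate transport. Slc16a1, the proton-coupled lactate and pyruvate carrier also called MCT1, read 7.88, 6.96, 7.53 and 6.79 on mutant arrays 1 to 4, against 5.59, 5.46, 6.53 and 5.80 on control arrays 1 to 4. Every mutant array was above every control array, and the level was 2.72-fold higher (difference 1.45, SE 0.30, adjusted p = 0.0376, limma, and 0.0169 with the replicate block). The pairs differed by 2.29, 1.5, 1.0 and 0.99 from replicate number 1 to 4. The call was lost on leaving out mutant array 1 or 3 or control array 1, 2 or 4 (adjusted p from 0.0689 to 0.109), without both control arrays 1 and 3 (0.118), on adjusting over all probe sets (0.0571), and on averaging its 2 probe sets (0.63, adjusted p = 0.0704), of which the dimmer averaged 2.15 in mutant and 2.34 in control arrays.

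The other lactate transporters did not pass. Slc16a7 (MCT2), a high-affinity carrier found on sperm tails, averaged 13.38 ± 0.15 in mutant and 13.07 ± 0.16 in control arrays and was higher within all 4 pairs (difference 0.31, adjusted p = 0.214). Slc16a3, the lactate exporter of glycolytic cells, and Slc16a8, the carrier of retinal pigment epithelium and choroid plexus, read near the floor in both groups, at 2.91 against 2.91 and 3.24 against 3.39.

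Lactate dehydrogenase is a tetramer of A, B and C subunits, of which C is specific to male germ cells. Ldhb, the subunit typical of tissues that burn lactate, had the largest difference and the largest spread of all members. It read 9.22, 6.40, 9.64 and 9.35 on mutant arrays 1 to 4, against 5.04, 5.08, 7.08 and 6.65 on control arrays 1 to 4. Mutant array 2 lay among the controls and the other mutant arrays far above them. The difference of 2.69 (SE 0.76), 6.47-fold, had an adjusted p of 0.0902 without and 0.0154 with the replicate block, and without mutant array 2 it was 3.45 (adjusted p = 0.00849). All 4 probe sets of Ldhb gave differences between 2.24 and 3.03. Ldhc averaged 14.55 ± 0.12 in mutant and 14.56 ± 0.10 in control arrays, with an interval of -0.27 to 0.24, and Ldha 13.53 ± 0.15 and 13.63 ± 0.13.

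In the pyruvate dehydrogenase complex 0 of 4 measured members passed. The germ cell subunit Pdha2 was higher within all 4 pairs, at 12.49, 12.38, 12.02 and 12.18 on mutant and 12.20, 12.09, 11.86 and 12.09 on control arrays (difference 0.21, adjusted p = 0.456), and its X-linked counterpart Pdha1 read 3.26 against 3.03 near the floor. Pdhb, the beta subunit, differed by 0.0304. Dlat, the acetyltransferase core, was lower within all 4 pairs (9.57 ± 0.41 against 9.97 ± 0.19, difference -0.40, adjusted p = 0.314). Gk2, a testis glycerol kinase, read 14.05, 14.24, 14.17 and 14.19 on mutant arrays, against 14.47, 14.33, 14.28 and 14.42 on control arrays, a small shift without overlap (difference -0.21, SE 0.10, adjusted p = 0.286).

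Of the 8 measured germ cell forms (Aldoart1, Aldoart2, Gapdhs, Pgk2, Eno4, Ldhc, Pdha2 and Gk2) 0 passed with or without the block, and the smallest adjusted p was 0.286 without it. Their differences ran from -0.55 to 0.21 with a median of -0.046, beside a median of 0.0328 over the other 28 members. A p that misses the threshold does not show that they were equal. Their intervals put a 2-fold change outside for all but Eno4, whose interval reached -1.19.

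Whether the forms of 1 enzyme or transporter changed unequally was asked for 11 pairs, by an exact permutation test of the per-array difference between the forms. The size of such a difference has no meaning across probe sets, so only its change between genotypes is given. Pgam2 minus Pgam1 changed by -1.45, with an SD over arrays of 0.40 in the mutant and 0.23 in the control group (n = 4 each). Hk1 minus Hk2 changed by -1.19 (SD 0.39 in mutant and 0.39 in control arrays) and Pfkp minus Pfkl by -1.79 (SD 0.54 in mutant and 0.41 in control arrays). Pfkl, with means of 3.96 in mutant and 3.06 in control arrays, and Hk2, with a control mean of 3.91, lay under 4, near the floor, so the sizes of these 2 changes are uncertain. Pdha1 and, in control arrays, Slc2a1 lay under 4 as well. For these 3 pairs the exact two-sided permutation p was 0.0286, the smallest that 4 against 4 arrays allow, and 0.105 after Benjamini-Hochberg adjustment over the 11 pairs, so none passed after adjustment. Within same-numbered pairs the sign-change test cannot go below 0.125, which is the value all 3 gave. Slc16a7 minus Slc16a1 changed by -1.14 (exact p = 0.0857) and Pgk2 minus Pgk1 by -0.68 (exact p = 0.114). Ldhc minus Ldha, Pdha2 minus Pdha1 and both aldolase pairs changed by between -0.11 and 0.20.

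**Figure D4:**
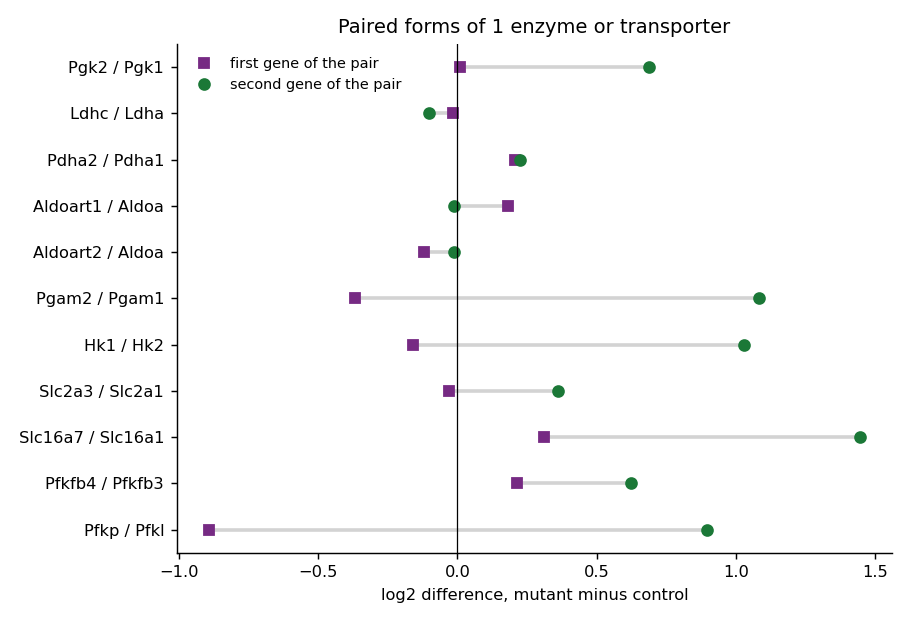
Log2 difference (mutant minus control) of the first gene (square) and the second gene (circle) of each of the 11 pairs of forms. The gap is widest for Pfkp and Pfkl, Pgam2 and Pgam1, and Hk1 and Hk2, whose first gene lies below 0 and second gene above 0.

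Sertoli markers were higher in the mutant together with Slc16a1, Ldhb, Hk2 and Pgam1, and their part in those values was not tested. Mutant array 2 and control array 3 had nearly the same Sertoli mean, 6.01 and 6.0, but differ in replicate number and in the Gapdh 3' minus 5' difference (0.33 and 2.05), so their values are a description of these arrays only. Between that mutant array and that control array, Hk2 read 4.31 and 4.31, Ldhb 6.40 and 7.08, Pgam1 6.48 and 6.19, and Slc16a1 6.96 and 6.53. Pfkp read 10.71 on that mutant array and 11.25 on that control array. Across all arrays the Sertoli mean was higher on every mutant array than on any control array, so it and genotype cannot be told apart. The same holds for the spermatogonial mean (5.11 to 5.97 on mutant and 4.41 to 4.90 on control arrays). It holds too for the peritubular mean (3.54 to 4.22 on mutant and 3.25 to 3.42 on control arrays). There, Dcn differed by 1.95, with mutant array 1 at 7.67, Lum by 1.07 and Acta2 by 0.26. Cnn1 (0.04), Des (-0.01), Myh11 (-0.10) and Tagln (-0.20) read under 4 on all arrays, and the median difference was 0.043. The part of spermatogonial, peritubular and spermatocyte cells in the members' values was not tested either.

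**Figure D5:**
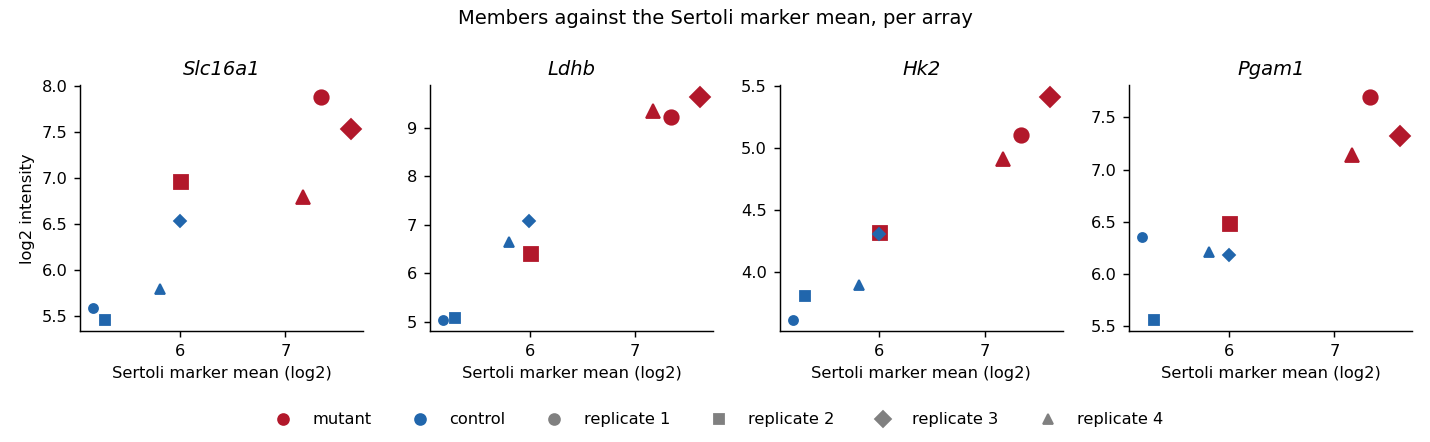
Log2 intensity of Slc16a1, Ldhb, Hk2 and Pgam1 on each mutant and control array against the mean log2 intensity of the 25 measured Sertoli markers on the same array. The 3 mutant arrays above 7 on the marker axis have the highest Ldhb, Hk2 and Pgam1, and mutant array 2 and control array 3 lie side by side at 6.01 and 6.0.

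The start regions of 4 members are shown. They are the 1 gene that rose, the 1 that fell, the one with the largest difference (Ldhb) and the germ cell form of lactate dehydrogenase (Ldhc). RefSeq windows of GRCm38.p6 from 250 bases before to 50 after a start were found for 33 of the 36 measured members. The windows are chr3:104638414-104638713 (plus strand) for Slc16a1, chr13:6648722-6649021 (minus strand) for Pfkp, chr6:142507908-142508207 (minus strand) for Ldhb and chr7:46861013-46861312 (plus strand), 1 of its 2 windows, for Ldhc. Capitals mark matches, on either strand, to the cAMP response element TGACGTCA, its part TGACG, the GC box GGGCGG or the TATA letters TATAAA.
Slc16a1: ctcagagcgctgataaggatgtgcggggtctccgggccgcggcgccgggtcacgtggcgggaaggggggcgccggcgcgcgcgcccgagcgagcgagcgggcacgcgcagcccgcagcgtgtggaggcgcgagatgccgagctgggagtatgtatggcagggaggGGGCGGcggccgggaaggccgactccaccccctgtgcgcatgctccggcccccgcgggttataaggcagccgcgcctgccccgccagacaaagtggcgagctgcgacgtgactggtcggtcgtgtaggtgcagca
Pfkp: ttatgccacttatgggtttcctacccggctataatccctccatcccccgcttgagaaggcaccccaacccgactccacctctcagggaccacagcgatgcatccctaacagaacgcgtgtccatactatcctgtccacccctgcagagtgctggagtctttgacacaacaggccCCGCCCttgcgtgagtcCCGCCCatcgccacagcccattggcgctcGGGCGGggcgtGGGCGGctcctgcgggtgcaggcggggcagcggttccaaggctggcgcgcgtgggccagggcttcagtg
Ldhb: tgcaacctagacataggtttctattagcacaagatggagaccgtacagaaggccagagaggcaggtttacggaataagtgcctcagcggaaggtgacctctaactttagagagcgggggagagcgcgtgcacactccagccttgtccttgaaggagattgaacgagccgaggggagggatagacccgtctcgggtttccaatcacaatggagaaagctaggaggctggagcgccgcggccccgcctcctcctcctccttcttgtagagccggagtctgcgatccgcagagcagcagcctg
Ldhc: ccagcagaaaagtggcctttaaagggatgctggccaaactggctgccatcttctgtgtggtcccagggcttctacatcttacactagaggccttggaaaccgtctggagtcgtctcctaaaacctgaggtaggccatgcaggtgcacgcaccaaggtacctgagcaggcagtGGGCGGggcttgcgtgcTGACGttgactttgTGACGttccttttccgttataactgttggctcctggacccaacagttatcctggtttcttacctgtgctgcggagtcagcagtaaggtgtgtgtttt
Slc16a1 held 42 CpG dinucleotides and 1 GC box, Pfkp 21 and 4 GC boxes, Ldhb 17 CpG and no match, and this window of Ldhc 9 CpG, 1 GC box and 2 matches to TGACG. Among all 32851 windows 35.7% held GGGCGG, 20.8% TGACG, 1.79% TGACGTCA and 13.6% TATAAA. Of the members' 45 windows 21 held GGGCGG, 13 TGACG, 3 TATAAA and 1, of Ldha, TGACGTCA. The 7 germ cell forms with a window had a median of 5.0 CpG (2.5 in Gapdhs to 24 in Eno4, averaged over a gene's windows), the other 26 members a median of 18, and all genes with a window a median of 7.0. The letters are a description of these windows, and a missing match says nothing of a factor.

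A list of 104 other genes held genes of sugar and pyruvate metabolism and also related ones such as Akap4, Hif1a and Myc. Of these 104 genes, 91 were measured, 2 rose and 2 fell, beside the 1.86% and 1.85% of all genes. With the replicate block 13 rose and 5 fell, beside 6.6% and 4.94%. Without it the count is near the background, and the median difference was 0.0209. Me3, the mitochondrial NADP-dependent malic enzyme, which makes pyruvate from malate, read 3.98, 4.24, 4.37 and 4.14 on mutant arrays, against 6.64, 6.08, 6.23 and 6.01 on control arrays. It was lower (difference -2.06, SE 0.16, adjusted p = 0.000877, limma) and passed in every alternative run, with adjusted p of up to 0.0184. The mutant arrays read near the floor, so no fold is given. Slc2a8, a glucose transporter of the testis, read 8.51, 8.92, 8.82 and 9.16 on mutant arrays against 10.08, 9.62, 9.52 and 9.93 on control arrays, with no overlap (1.91-fold lower, adjusted p = 0.0291).

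Emb encodes embigin, a partner that carries monocarboxylate transporters to the cell surface. It read 3.69, 2.87, 3.76 and 3.56 on mutant arrays, against 2.32, 2.25, 2.32 and 2.24 on control arrays, a low level in both groups, and rose (difference 1.19, SE 0.19, adjusted p = 0.0158). The related partner basigin, Bsg, averaged 12.88 ± 0.19 in mutant and 12.71 ± 0.32 in control arrays (adjusted p = 0.659). Pgam5, a mitochondrial phosphatase related to the mutases, rose 1.53-fold (7.88 ± 0.15 against 7.28 ± 0.14, adjusted p = 0.0334). The calls of Slc2a8, Emb and Pgam5 were lost without both control arrays 1 and 3 (adjusted p = 0.155, 0.147 and 0.223). With the mean of its probe sets, Emb differed by 0.55 and did not pass (adjusted p = 0.0669). Pgam5 did not pass after a further quantile normalization (0.0557) or with a robust variance trend (0.145). All 3 calls were also lost without some single arrays: for Slc2a8 mutant array 1 or 3 or control array 1, 2 or 4 (0.0501 to 0.0905), for Emb mutant array 3 or control array 4 (0.0539 and 0.0552), and for Pgam5 mutant array 1 or 3 or any control array (0.0557 to 0.0881).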

How the data were processed

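Biotinylated cRNA from 2 µg of total RNA was hybridised to Affymetrix arrays, per the labels' protocols. The authors deposited normalized values, on a log2 intensity scale, with 1 value per probe set and array. GCRMA and limma are named in the submitters' processing notes, without versions or roles. Scanner files were not used here, and the number of arrays limits the precision.

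From these values, 64 control probe sets were left out, 45037 remained, and 34945 carried 1 gene in the platform annotation, with symbols updated through a GRCm38.p6 gene table. Each of 18193 genes was read by its brightest single-gene probe set. The test was limma's (version 3.58.1, under R 4.3.3; group as the only term, two-sided, Benjamini-Hochberg over all genes, threshold 0.05, standard errors of the moderated model), which was tested on simulated data. Replicate numbers come from the titles. Deviations of same-numbered arrays from their group means correlated over genes with r of 0.364, 0.416, 0.495 and 0.407, so the numbers were taken to pair the arrays. Alternatives were the replicate block, leaving out 1 array or both control arrays 1 and 3, the mean of a gene's probe sets, a minimum mean of 4, a further quantile normalization, array weights and a robust variance trend.

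All 39 genes could be named, with all array values for those past the threshold or without overlap, and of the other pathway genes those past the threshold. Bsg, which did not pass, was named beside Emb outside this rule. Further members were given array by array after their values were seen. Members and lists were chosen with earlier results of these data known. Round spermatids of 7 animals went into each array, per the labels, which do not say whether arrays share animals, so p-values measure the spread between these preparations.

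Values of marker lists for other cells, as means over the genes measured, were for Leydig cells 3.02 to 3.70 on mutant and 2.80 to 3.14 on control arrays, for peritubular cells 3.54 to 4.22 and 3.25 to 3.42, for blood cells 3.08 to 3.85 and 2.91 to 3.17, and for endothelial cells 2.41 to 2.61 and 2.47 to 2.55.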

Additional observations from a re-analysis of the deposited data

Results flagged for a closer look

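In 5 of 72 groups of 4 arrays, 1 array was farther from the others than Dixon's 95% critical value for a group of 4 allows, where chance gives about 1 in 20 groups. Mutant array 2 was low for Ldhb, at 6.40 against 9.22 to 9.64 on the other mutant arrays, and for Pkm, at 10.03 against 10.84 to 10.97. The Sertoli marker mean of that array was 6.01, against 7.17 to 7.62 on the other mutant arrays, and its part in these values was not tested. Mutant array 1 was high for Aldoart1, at 11.92 against 11.36 to 11.44, and for Pgk2, at 14.43 against 14.04 to 14.11. Control array 2 was high for Pdha1, at 3.27 against 2.92 to 2.97, all near the floor.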

How the results depend on the processing

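The number of arrays and, for members near the floor, the low signal limit what could be detected. Genes past the threshold numbered 339 risen and 336 fallen. With the replicate block these were 1201 and 899, and the block raised members risen to 5 and other pathway genes to 13 risen and 5 fallen. It raised member probe sets risen to 9, for which no share over all probe sets was counted. It left 0 of 11 paralog pairs with a p under 0.05, which sign changes in 4 pairs cannot reach, and changed no other call. Without both control arrays 1 and 3 there were 18 risen and 50 fallen genes, 0 and 0 members, 0 and 1 other pathway genes, and 0 paralog pairs. With the mean of all probe sets there were 0 risen and 0 fallen members, 1 risen other pathway gene and 1 paralog pair. Members risen were 3 with a minimum mean of 4, 2 after a further quantile normalization (618 genes fallen, 1 other pathway gene risen), 5 with array weights (980 and 675 genes, 8 other pathway genes risen), 3 with a robust variance trend and 0 when adjusted over all probe sets. Leaving out 1 array gave 70 to 755 genes risen and 129 to 376 fallen, 0 to 6 members risen and 1 fallen, 0 to 6 other pathway genes risen and 1 to 2 fallen, 0 to 9 member probe sets risen and 0 to 1 fallen, 2 to 4 paralog pairs and a median member difference of -0.0425 to 0.0658. Members near 0 changed sign: on leaving out 1 array, Aldoa (-0.142 to 0.091), Pgk2 (-0.078 to 0.062), Eno2 (-0.177 to 0.102), Slc16a3 (-0.126 to 0.108), Pdhb (-0.039 to 0.101), Pkm (-0.133 to 0.191), Slc2a3 (-0.179 to 0.066), Ldhc (-0.063 to 0.035), Tpi1 (-0.013 to 0.072), Gapdhs (-0.166 to 0.025), Pdha2 minus Pdha1 (-0.148 to 0.054) and Aldoart1 minus Aldoa (-0.0038 to 0.297). Without control arrays 1 and 3, Aldoart1 was -0.0836, Tpi1 -0.0430, Pgk2 -0.0891, Slc16a3 0.11, Pdha2 minus Pdha1 0.015 and Aldoart2 minus Aldoa 0.06. With the mean of probe sets, Slc2a3 was 0.47, Pdhb -0.0422, Pdha2 minus Pdha1 0.12 and Slc2a3 minus Slc2a1 0.31. After quantile normalization, Aldoa was 0.0099, Pgk2 -0.0040, Eno2 0.0055, Pkm 0.012, Slc16a3 0.016 and Pdha2 minus Pdha1 0.035. With array weights, Pgk2 was -0.0703, Pkm 0.0493 and Pdhb -0.0485. The cause of these changes was not tested.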
